A study of Mus musculus with 32 samples.

Results

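Blood vessels of skeletal muscle were followed through 10 genes, all present among the 54838 genes of the expected count table: *Pecam1*, *Cdh5*, *Kdr*, *Flt1* and *Tek*, which code for proteins of the endothelial surface, *Vegfa*, *Vegfb*, *Angpt1* and *Apln*, which code for secreted angiogenic ligands, and *Vash2*, which codes for a vasohibin. The genes were taken by name, and the rule sets no limit on any measured value. They and the gene lists used below were chosen with earlier results of these data known. Shares of all genes printed beside their counts are therefore a description and not a test. RNA-seq was made from the tibialis anterior muscle of C57BL6/J mice with a deletion of exon 4 of *Mtm1*, the X-linked gene of the lipid phosphatase myotubularin (KO, *Mtm1* -/y), and of wild-type (WT) littermates, at postnatal days 1, 14, 21 and 35 (P1 to P35). Each genotype and age had 4 libraries, 32 in all, and both genotypes share the strain background. Nothing in the labels ties a library to its own animal, so P values measure the spread between libraries. All 10 genes passed the filter on low counts in every comparison.

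Endothelial cells line every vessel, hold together through junction proteins such as PECAM1 and VE-cadherin (*Cdh5*), and read growth signals through the VEGF receptors VEGFR2 (*Kdr*) and VEGFR1 (*Flt1*) and the angiopoietin receptor TIE2 (*Tek*). In muscle, much of the VEGF comes from the fibres themselves, so that the capillary bed is matched to oxygen and fuel use. Vasohibins pair with SVBP to cut the terminal tyrosine from alpha-tubulin, and VASH1 is known as an inhibitor of angiogenesis while VASH2 has been linked to its promotion.

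At P35 5 of the 10 genes were lower in KO muscle and *Vash2* was higher. The mean levels of *Flt1* and *Vegfa* in KO muscle were 47.5% and 48.4% of WT, *Cdh5* was at 53.0%, *Vegfb* at 57.4% and *Tek* at 62.7%, whereas *Vash2* stood at 257% of WT. *Vash2* was already at 342% of WT at P21. At P1 and P14 none of the 10 passed the test, except *Vash2* at P14 when the replicate number entered as a block. Levels are given as CPM, a gene's count relative to the total of its library, scaled by the trimmed mean of M values (TMM) over all libraries, and a gene was called when edgeR's quasi-likelihood test gave an adjusted P under 0.01 with a change of more than 1.5-fold. At P35 the scaling bears on these results: with counts scaled by library totals in place of TMM, the median log2 difference of all genes moved from 0.04 to 0.44 and 3 of the 10 genes were called, *Flt1* and *Vegfa* lower and *Vash2* higher. The share of all genes called in either direction with that scaling was 30%, and 3 of 10 is no more than that. By direction the comparison differs: 2 of the 10 were lower, against 2.09% of all genes, and 1 was higher, against 27.9%. For *Flt1*, *Cdh5* and *Tek*, fewer endothelial cells and less RNA per endothelial cell cannot be told apart in whole muscle. Which cells the RNA of *Vegfa*, *Vegfb* and *Vash2* came from was not tested.

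The libraries held 49321035 to 85631408 counts, and the 10 genes drew between 143 and 20078 counts each in a library. 10 genes of the contractile fibre summed to at least 23080 CPM in every library. At P1 the sum ran from 23080 to 51480 CPM in KO and from 40410 to 52700 CPM in WT. The fibre gene *Acta1* was at 13940, 15290, 19380 and 9543 CPM in KO P1 replicates 1 to 4. The part of this in the P1 results was not tested. *Mtm1* itself, measured at 18.9 to 24.9 CPM in WT from P14 on, stood at 2.64 to 4.51 CPM in KO at those ages, and at P1 at 5.26 to 6.02 in WT against 2.32 to 3.91 in KO. 3 features of the libraries touch the results below. WT P35 replicate 1 was the lowest of its group for 9 of the 10 genes, all but *Flt1*, KO P1 replicate 4 was the lowest for 8, and replicate 4 of both genotypes at P14 was the highest for *Flt1* and *Vegfa* and the lowest for *Angpt1*, *Apln* and *Vash2*. In the P1 muscles 10 keratinocyte genes summed to 1958 to 7103 CPM, against at most 60.2 CPM later. In the P21 muscles 7 erythroid genes summed to 3179 to 4357 CPM in WT and 1627 to 3284 CPM in KO, against at most 758.7 CPM at P14 and P35.

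The 10 genes are protein coding and lie, in GRCm38, on chromosome 11 (*Pecam1*, 106654217 to 106750628, minus strand), 8 (*Cdh5*, 104101625 to 104144511, plus), 5 (*Kdr*, 75932827 to 75978458, and *Flt1*, 147561604 to 147726011, both minus), 4 (*Tek*, 94739289 to 94874976, plus), 17 (*Vegfa*, 46016993 to 46032369, minus), 19 (*Vegfb*, 6982473 to 6987651, minus), 15 (*Angpt1*, 42424723 to 42676977, minus), X (*Apln*, 48025146 to 48034853, minus) and 1 (*Vash2*, 190947646 to 190979296, minus). *Angpt1* shares 737 exon bases with *Gm17473* on the opposite strand. The paper names a directional library kit, but the sources used here do not say whether strand was used in counting. The level of *Angpt1* may therefore hold reads of *Gm17473*. *Apln*, like *Mtm1*, is on the X chromosome. No exon of the other 9 overlapped that of another gene.

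The RefSeq promoter table of GRCm38.p6 held 7 of the 10 genes, all but *Pecam1*, *Cdh5* and *Angpt1*. The 250 bases upstream of the start are printed for the 5 genes that were called at P35 and had an entry, since these are the stretches whose transcripts differed between the genotypes. Capitals mark the core of the binding motif of hypoxia-inducible factors, ACGTG or GCGTG, read on both strands. For *Vegfa* and *Vash2* the table gives 2 starts, of which 1 is shown. The windows are *Flt1* chr5:147726012-147726261 (minus strand), *Tek* chr4:94739039-94739288 (plus), *Vegfa* chr17:46032378-46032627 (minus), *Vegfb* chr19:6987652-6987901 (minus) and *Vash2* chr1:190979297-190979546 (minus).
Flt1: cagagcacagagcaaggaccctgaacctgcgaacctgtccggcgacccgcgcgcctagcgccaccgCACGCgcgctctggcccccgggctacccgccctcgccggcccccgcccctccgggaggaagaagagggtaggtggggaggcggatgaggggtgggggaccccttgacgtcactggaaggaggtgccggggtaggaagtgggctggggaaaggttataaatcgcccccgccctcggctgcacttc
Tek: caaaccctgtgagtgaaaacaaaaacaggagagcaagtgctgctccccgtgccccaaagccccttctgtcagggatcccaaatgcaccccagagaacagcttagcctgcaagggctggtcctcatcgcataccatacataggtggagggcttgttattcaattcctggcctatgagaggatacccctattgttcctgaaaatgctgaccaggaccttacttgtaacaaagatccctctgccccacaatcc
Vegfa: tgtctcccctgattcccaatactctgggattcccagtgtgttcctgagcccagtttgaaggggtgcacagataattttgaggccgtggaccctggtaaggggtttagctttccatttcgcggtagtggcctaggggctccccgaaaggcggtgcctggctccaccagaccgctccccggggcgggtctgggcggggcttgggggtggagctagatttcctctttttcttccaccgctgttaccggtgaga
Vegfb: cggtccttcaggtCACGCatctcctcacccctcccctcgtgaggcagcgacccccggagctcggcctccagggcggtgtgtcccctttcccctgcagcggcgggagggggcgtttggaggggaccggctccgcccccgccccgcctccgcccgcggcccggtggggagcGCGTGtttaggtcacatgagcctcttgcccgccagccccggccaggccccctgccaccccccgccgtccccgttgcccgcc
Vash2: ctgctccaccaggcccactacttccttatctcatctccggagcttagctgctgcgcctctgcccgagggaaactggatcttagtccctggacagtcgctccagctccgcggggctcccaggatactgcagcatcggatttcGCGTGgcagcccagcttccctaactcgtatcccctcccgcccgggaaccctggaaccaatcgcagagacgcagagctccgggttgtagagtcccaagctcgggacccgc
A core of this kind stood once in the windows of *Flt1* and *Vash2* and at 2 places in that of *Vegfb*, each time as GCGTG, in *Flt1* and at 1 place in *Vegfb* on the strand opposite to the one printed, and there was no match in those of *Tek* and *Vegfa*. Among 32851 windows of the same length 38.6% held 1 of the 2 forms, 28.2% GCGTG and 16.6% ACGTG, so a match is common.

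**Figure D1:**
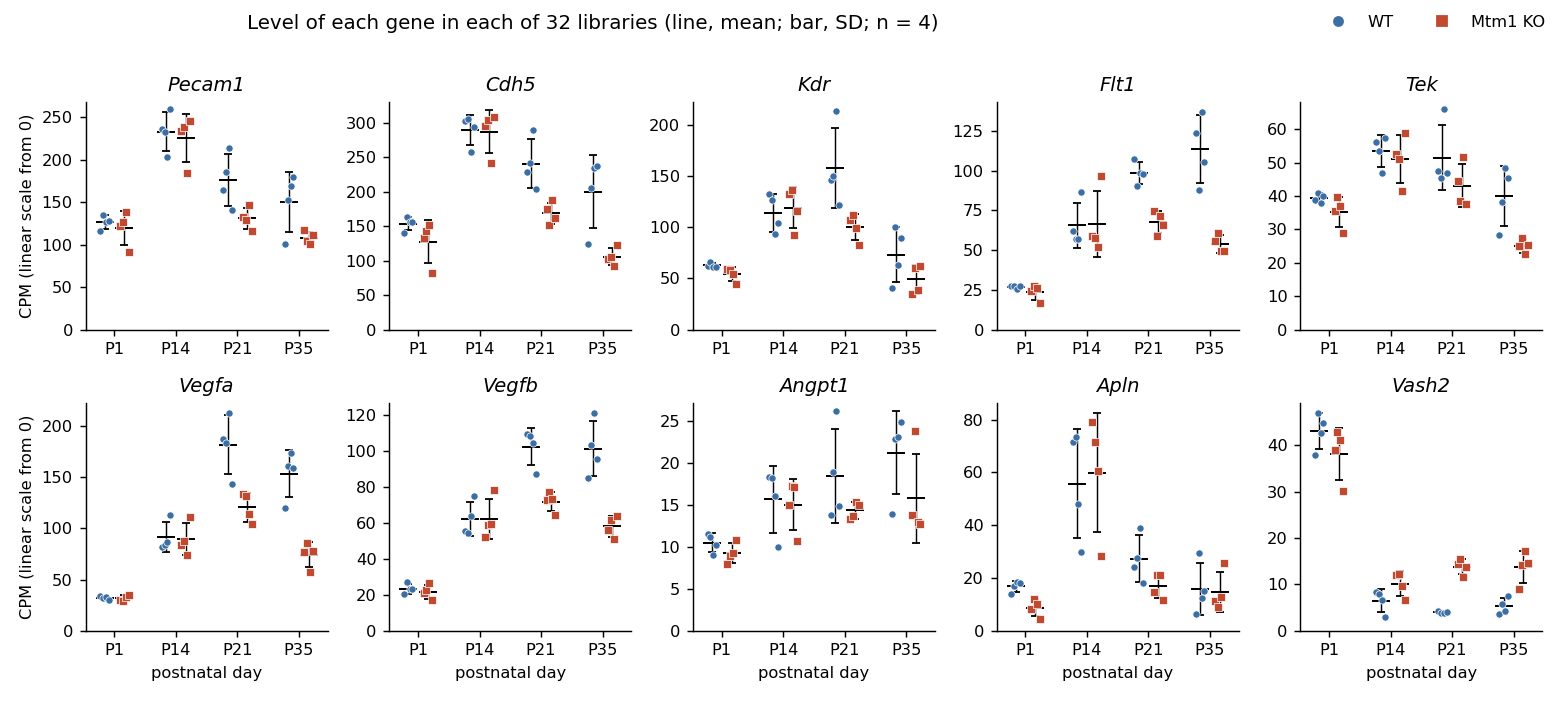
CPM of each gene (y axis, linear from 0) in each of the 32 libraries by postnatal day (x axis), WT as blue circles and *Mtm1* KO as red squares, with the mean as a line and the SD as a bar (n = 4). *Flt1*, *Vegfa* and *Vegfb* of WT and KO separate at P21 and P35 with no overlap, and *Vash2* falls from P1 to P14 in both genotypes and is higher in every KO library at P21 and P35.

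Among the receptors and junction genes, *Flt1* differed most. This receptor binds VEGF-A and VEGF-B with high affinity but signals weakly, and much of it is known to act as a trap for the ligand. At P35 its level in WT replicates 1 to 4 was 123.3, 87.5, 137.0 and 105.6 CPM, and KO replicates 1 to 4 gave 55.6, 60.6, 49.3 and 49.8 CPM. Every KO library lay below every WT library. The log2 difference (KO minus WT) was -1.05 (SE 0.14, edgeR adjusted P = 4.83e-04). 6 of the 10 genes were called at this age (5 lower, 1 higher), against 16% of all 15595 genes tested (7.52% lower and 8.49% higher). 6 had groups that did not overlap, against 39.6%, and 7 an unadjusted p under 0.05, against 50.3%.

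*Cdh5*, the adherens junction cadherin that marks vascular endothelium, gave 124.0, 205.5, 234.0 and 237.5 CPM in the WT libraries at P35 and 103.3, 105.1, 93.0 and 123.2 CPM in those of KO. The groups did not overlap, although WT replicate 1 came within 1 CPM of the highest KO library. The log2 difference was -0.89 (SE 0.19, edgeR adjusted P = 0.0049). *Tek*, the angiopoietin receptor gene, gave 28.2, 38.3, 48.3 and 45.4 CPM in WT against 24.9, 27.6, 22.6 and 25.4 CPM for KO. Again there was no overlap, and the log2 difference was -0.65 (SE 0.15, edgeR adjusted P = 0.00822). These 2 calls were the least firm of the 6: with 1 library left out, *Cdh5* was called in 2 of 8 fits (without WT replicate 1 or KO replicate 4) and *Tek* in 1 of 8 (without WT replicate 1), while *Flt1*, *Vegfa*, *Vegfb* and *Vash2* were called in 8 of 8. Scaled by library totals, *Cdh5* differed by -0.49 and *Tek* by -0.25, and neither was called.

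*Pecam1* and *Kdr* were not called at P35. *Pecam1*, an adhesion molecule of endothelium that platelets and leukocytes carry as well, gave 100.8, 151.9, 169.3 and 179.6 CPM in WT, and KO replicates gave 116.8, 104.8, 100.7 and 111.0 CPM. Only WT replicate 1 fell into the KO range. The log2 difference was -0.45 (SE 0.16, edgeR adjusted P = 0.046). Without WT replicate 1 it was -0.60 and *Pecam1* was called, which made 7 of 10. *Kdr*, the receptor that carries most of the mitogenic signal of VEGF-A, gave 40.2, 99.9, 63.3 and 89.2 CPM in WT, while KO gave 35.3, 60.2, 38.9 and 62.0 CPM. Its groups overlapped, and the log2 difference was -0.55 (SE 0.28, edgeR adjusted P = 0.147).

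Of the ligands, *Vegfa*, the main growth factor for endothelium and a target of hypoxia-inducible factors, gave 119.7, 161.2, 173.4 and 159.0 CPM in WT at P35, while KO gave 76.5, 85.7, 57.1 and 77.4 CPM. The ranges were well apart. The log2 difference was -1.02 (SE 0.15, edgeR adjusted P = 6.99e-04). *Vegfb*, a ligand of VEGFR1 made in oxidative tissues such as heart and muscle, gave 84.8, 103.2, 121.3 and 95.3 CPM in WT, while KO gave 55.8, 61.7, 50.9 and 63.7 CPM. Here too no KO library reached the WT range, and the log2 difference was -0.78 (SE 0.12, edgeR adjusted P = 9.45e-04). With library totals the log2 difference of *Vegfb* was -0.38 and it was not called, whereas *Vegfa* (-0.62) and *Flt1* (-0.64) were.

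The other ligands did not pass at P35. *Angpt1*, the TIE2 agonist that keeps vessels quiescent and is made by cells around them, gave 13.9, 22.9, 23.2 and 24.9 CPM in WT, while KO gave 13.8, 23.8, 12.9 and 12.7 CPM. The log2 difference was -0.40 (SE 0.24, edgeR adjusted P = 0.208). WT replicate 1 and KO replicate 2 each fell in the range of the other genotype. *Apln*, the apelin precursor found in sprouting tip cells, gave 6.50, 29.4, 12.4 and 14.9 CPM in WT, while KO gave 11.2, 9.06, 12.7 and 25.7 CPM (log2 difference -0.08, SE 0.44, edgeR adjusted P = 0.894). Its spread within each genotype was larger than the difference between them, and its sign turned with library totals (0.30), as did that of *Angpt1* (0.01).

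*Vash2* moved the other way. At P35 the WT libraries gave 3.70, 5.87, 4.30 and 7.52 CPM, while KO gave 8.97, 14.2, 17.3 and 14.6 CPM. The groups did not overlap, and the log2 difference was 1.39 (SE 0.25, edgeR adjusted P = 0.00218). At P21 the WT libraries gave 4.37, 3.93, 3.84 and 4.01 CPM, while KO gave 14.5, 15.4, 11.6 and 13.7 CPM. The 4 WT libraries were nearly level and the lowest KO library was far above them. The log2 difference at P21 was 1.78 (SE 0.10, edgeR adjusted P = 3.11e-05), and it was called under all 11 other settings and in all 8 fits with 1 library left out.

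**Figure D2:**
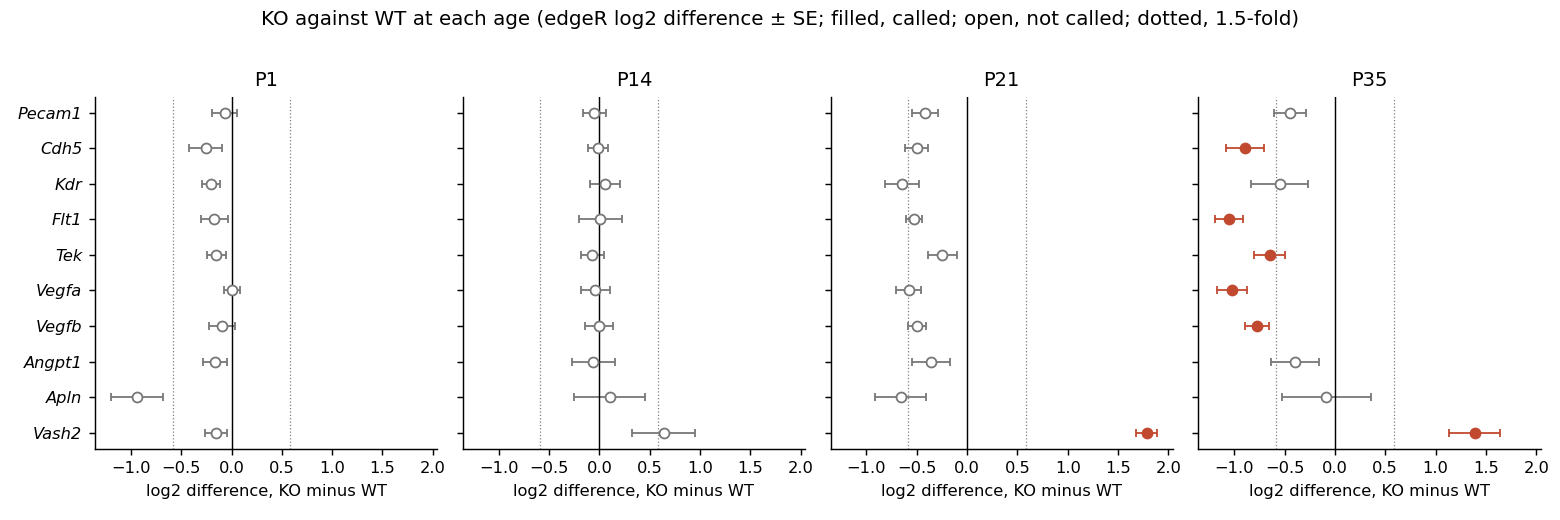
log2 difference of KO minus WT (x axis) for each gene (y axis) at P1, P14, P21 and P35, with the SE from edgeR as a bar; filled points passed the adjusted P of 0.01 and 1.5-fold, and dotted lines mark 1.5-fold. Points other than *Vash2* sit near 0 at P14, 9 of 10 lie left of 0 at P21 and P35, and *Vash2* is the 1 gene to the right at both ages (with library totals *Angpt1* and *Apln* also lie right of 0 at P35).

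P21 was the first age at which a gene passed without a replicate block. *Vash2* was called higher, 1 of 10, against 3.18% of 15179 genes called higher (4.67% in either direction), and 6 of the 10 had groups without overlap (*Cdh5*, *Kdr*, *Flt1*, *Vegfa*, *Vegfb* and *Vash2*), against 24.7%. The other 9 were all negative, from -0.25 for *Tek* to -0.66 for *Apln*. *Flt1* gave 107.1, 90.2, 98.7 and 97.8 CPM in WT, while KO gave 74.8, 58.9, 71.7 and 65.8 CPM. Its log2 difference of -0.53 (SE 0.08, edgeR adjusted P = 0.0028) was below the 1.5-fold limit, as was that of *Vegfb*, -0.50 (SE 0.09, edgeR adjusted P = 0.0049). *Vegfa* gave 187.3, 182.7, 212.8 and 143.4 CPM in WT, while KO gave 133.8, 131.0, 113.7 and 103.7 CPM. These did not overlap, but the log2 difference of -0.58 (SE 0.13) fell just short on both criteria (edgeR adjusted P = 0.0122), and *Vegfa* was called without WT replicate 4.

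*Kdr* at P21 gave 146.5, 150.3, 213.3 and 121.5 CPM in WT, while KO gave 107.2, 112.0, 99.3 and 83.1 CPM. The groups were apart, and the log2 difference was -0.64 (SE 0.17, edgeR adjusted P = 0.025). *Cdh5* differed by -0.50 (SE 0.11, edgeR adjusted P = 0.0146) and *Pecam1* by -0.42 (SE 0.13, edgeR adjusted P = 0.0467). At this age 8 of the 10 had an unadjusted edgeR p under 0.05 with TMM, all but *Tek* and *Angpt1*, against 35.1% of all genes. With library totals it was 6 of the 10, and 9 were still negative. The log2 differences of *Kdr*, *Cdh5*, *Pecam1* and *Tek* were then -0.47, -0.32, -0.23 and -0.07. Those of *Flt1*, *Vegfa* and *Vegfb* were -0.34, -0.40 and -0.31, and the median of all genes was 0.20. DESeq2 called *Kdr*, *Vegfa* and *Vash2*.

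At P14 the genotypes were close. Without a replicate block edgeR called 0 of the 10 (0.0318% of 15728 genes were called), and 0 of 10 against 4.84% had groups without overlap. In that edgeR fit none had an unadjusted p under 0.05 (6.82% of all genes did), and DESeq2, also without a block, called none. The log2 differences of 9 genes ran from -0.07 to 0.10. *Vash2* gave 8.45, 7.88, 6.71 and 2.99 CPM in WT, while KO gave 12.1, 12.3, 9.76 and 6.60 CPM. The KO libraries were higher as a group but KO replicate 4 was below 3 of the WT libraries. Its log2 difference was 0.64 (SE 0.31, edgeR adjusted P = 0.775). At this age libraries of the 2 genotypes with the same number deviated together (r = 0.19 to 0.588), and only the fit with a block uses this pairing. When the replicate number entered the model as a block, *Vash2* was called (log2 difference 0.67, edgeR adjusted P = 0.00404, the lowest of a range up to 0.805 over the other settings), while the number of genes called went from 5 to 98.

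At P1 edgeR called 0 of the 10 (0.0442% of 18100 genes were called). DESeq2 called none either, and 1 gene, *Apln*, had an unadjusted p under 0.05, against 10.9% of all genes. *Apln* gave 14.0, 16.8, 18.6 and 18.0 CPM in WT, while KO gave 8.36, 11.9, 10.2 and 4.35 CPM. No KO library reached the lowest WT library, but the log2 difference of -0.94 (SE 0.26) did not pass (edgeR adjusted P = 0.226). *Kdr* also had groups without overlap, 61.2 to 66.1 CPM in WT and 44.1 to 59.4 CPM in KO, so that 2 of 10 did so against 8.62% of all genes. Without KO replicate 4 the difference of *Apln* was -0.72 and that of *Kdr* -0.12.

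Whether the effect of the genotype itself changed between ages was tested as an interaction over all 32 libraries, and edgeR called 0 of the 10 at each step. The background was 0.0161% of 18583 genes from P1 to P14, 0.425% from P14 to P21 and 0.463% from P21 to P35. From P14 to P21, 6 genes had an unadjusted p under 0.05 (*Cdh5*, *Kdr*, *Flt1*, *Vegfa*, *Vegfb* and *Vash2*), against 12.9% of all genes. The largest of these was *Vash2*, whose difference between genotypes grew by 1.13 on the log2 scale (SE 0.34, edgeR adjusted P = 0.0965). From P21 to P35 it was 3 genes (*Flt1*, *Tek* and *Vegfa*) against 17.4%, and from P1 to P14 it was *Vash2* alone against 6.46%. DESeq2 called none at any step, so a difference that passes at P35 and not at P21 is not shown to differ between these ages.

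Each step in age was compared over 8 libraries of 1 genotype. From P1 to P14 in WT, 7 genes rose (*Pecam1*, *Cdh5*, *Kdr*, *Flt1*, *Vegfa*, *Vegfb* and *Apln*) and *Vash2* fell, 8 of 10 called against 55.1% of 17435 genes (24.7% higher and 30.4% lower). In KO the same 7 and *Angpt1* rose and *Vash2* fell, 9 of 10 against 52.6% (23.5% higher and 29.1% lower). The call of *Angpt1* in KO was lost without KO P1 replicate 1 or 2 or KO P14 replicate 2 or 3. *Apln* had the largest rise, from 16.9 to 55.8 CPM on average in WT (log2 difference 1.72, SE 0.25) and from 8.69 to 60.0 CPM in KO (2.76, SE 0.37). *Vash2* fell from 43.1 to 6.51 CPM in WT and from 38.2 to 10.2 CPM in KO, log2 differences of -2.73 (SE 0.26) and -1.94 (SE 0.19). With library totals the median of all genes moved to -0.85 in WT and -0.81 in KO. In WT 3 of 10 genes were called, *Vegfa* and *Vegfb* higher and *Vash2* lower. In KO 5 were called, *Flt1*, *Vegfa*, *Vegfb* and *Apln* higher and *Vash2* lower. Both counts are below the share of all genes called in either direction with that scaling, 66.7% in WT and 63.5% in KO. Most of that share was lower: 57.5% lower and 9.17% higher in WT, and 54.3% lower and 9.2% higher in KO. The level of the keratinocyte genes moves with this step, and its part in the result was not tested.

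After P14 the genotypes differed in what passed. From P14 to P21 in WT *Vegfa* rose from 91.5 to 181.6 CPM (log2 difference 0.98, SE 0.14, edgeR adjusted P = 0.00226) and *Vegfb* from 62.1 to 102.4 CPM (0.71, SE 0.12, edgeR adjusted P = 0.00385), 2 of 10 called higher against 2.93% (5.53% in either direction). In KO neither was called, at 0.42 (edgeR adjusted P = 0.0349) and 0.20 (edgeR adjusted P = 0.232), while *Pecam1* (-0.80, SE 0.11), *Cdh5* (-0.78, SE 0.10) and *Apln* (-1.82, SE 0.31) fell, 3 of 10 against 3.74% that fell (7.04% in either direction). *Apln* kept its call in 2 of the 8 fits with 1 library left out (without KO P14 replicate 4 or KO P21 replicate 3), *Pecam1* and *Cdh5* in all 8. The comparisons share no libraries, and the tests of the difference between them are the interactions above, none of which passed. The WT step rested on single libraries: 0 genes were called by edgeR without WT P14 replicate 1, *Vegfa* alone without WT P14 replicate 2 or 3 or WT P21 replicate 1 or 2, and 5 (*Flt1*, *Vegfa*, *Vegfb*, *Apln* and *Vash2*) without WT P14 replicate 4. The level of the erythroid genes moves with this step, and its part was not tested.

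From P21 to P35 no gene was called in WT by edgeR, against 2.45% of 15039 genes. DESeq2 called *Kdr*, the 1 gene with an unadjusted p under 0.05 (against 34.4% of all genes), which went from 157.9 to 73.2 CPM (log2 difference -1.13, SE 0.28, edgeR adjusted P = 0.0235). In KO *Kdr* fell from 100.4 to 49.1 CPM (-1.02, SE 0.19, edgeR adjusted P = 0.00688), *Tek* from 43.1 to 25.1 CPM (-0.76, SE 0.11), *Cdh5* from 169.1 to 106.2 CPM (-0.66, SE 0.10) and *Vegfa* from 120.5 to 74.2 CPM (-0.69, SE 0.13), 4 of 10 against 1.94% that fell (4.01% in either direction). With 1 library left out, 0 to 4 genes were called in this step, 0 without KO P21 replicate 1 or KO P35 replicate 3 and all 4 without KO P35 replicate 2.

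Per kilobase of exon, the order of the levels at P35 in WT was *Vegfb* (63.0 CPM per kb), *Cdh5* (47.6), *Vegfa* (35.8), *Pecam1* (24.1), *Tek* (8.50), *Flt1* (8.39), *Kdr* (8.10), *Apln* (5.01), *Angpt1* (4.07) and *Vash2* (1.24). In KO *Vegfb* and *Cdh5* still led (36.2 and 25.3 CPM per kb), *Flt1* was eighth (3.99) and *Vash2* (3.19) was above *Angpt1* (3.03). For each gene the 8 groups of genotype and age were also put in order. Most neighbours in that order had overlapping ranges, in *Pecam1*, *Cdh5* and *Apln* all of them. In *Flt1*, *Vegfa*, *Vegfb*, *Angpt1* and *Vash2* the P1 groups were set off from their neighbour, and in *Flt1* and *Vegfb* so were the WT groups of P21 and P35 from KO at P21, the next below. In *Kdr* the gap lay between WT and KO at P1, and in *Tek* KO at P35 lay below all other groups.

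Ratios of 2 genes within a library do not depend on how libraries are scaled, and 28 were tested (7 pairs of genes at 4 ages) by a two-sided exact permutation test over the 70 ways to split 8 libraries, whose smallest p is 0.0286. None passed after adjustment (lowest adjusted p 0.114), and 7 reached the smallest p, with groups that did not overlap. Even these 7 together reach only 0.114, so full separation of the groups in 1 ratio could not pass by itself. That none passed is therefore no sign that the ratios are alike. The log2 ratio of *Vash2* to *Vash1* was among them at 3 ages. It was -1.78 in WT and -1.10 in KO at P14 (difference 0.68), and -1.93 and 0.11 at P21 (2.04). At P35 the WT libraries ran from -1.25 to -0.82 and the KO libraries from 0.26 to 1.54 (difference of the means 1.87). *Vash1*, the angiogenesis inhibitor of the pair, was itself at 10.6 CPM on average in WT and 7.42 CPM in KO at P35 (log2 difference -0.48, SE 0.17, edgeR adjusted P = 0.0505). *Svbp*, the partner of both, and *Ttl*, the ligase that puts the tyrosine back, were not called at P21 or P35 by DESeq2 or by edgeR with TMM. At P35 *Svbp* differed by 0.37 (SE 0.13, edgeR adjusted P = 0.044), the 1 of them with an unadjusted p under 0.05, and it was called higher with library totals (0.76, edgeR adjusted P = 6.54e-04).

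The ratio of *Pecam1* to *Cdh5* was -0.40 in WT and 0.03 in KO on the log2 scale at P35 (difference 0.44) and -0.28 and -0.07 at P1 (0.21). At P35 the KO libraries ran from -0.15 to 0.18 and the WT libraries from -0.47 to -0.30. Leukocytes carry *Pecam1* as well, and 5 of 8 macrophage genes were higher in KO at P35, against 8.49% of all genes. The part of leukocytes in this ratio was not tested. The ratio of *Vegfa* to *Vegfb* was 0.60 in WT and 0.34 in KO at P35 (difference -0.26), and that of *Apln* to its receptor gene *Aplnr* was -1.82 in WT and -2.63 in KO at P1 (difference -0.81). These complete the 7.

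**Figure D3:**
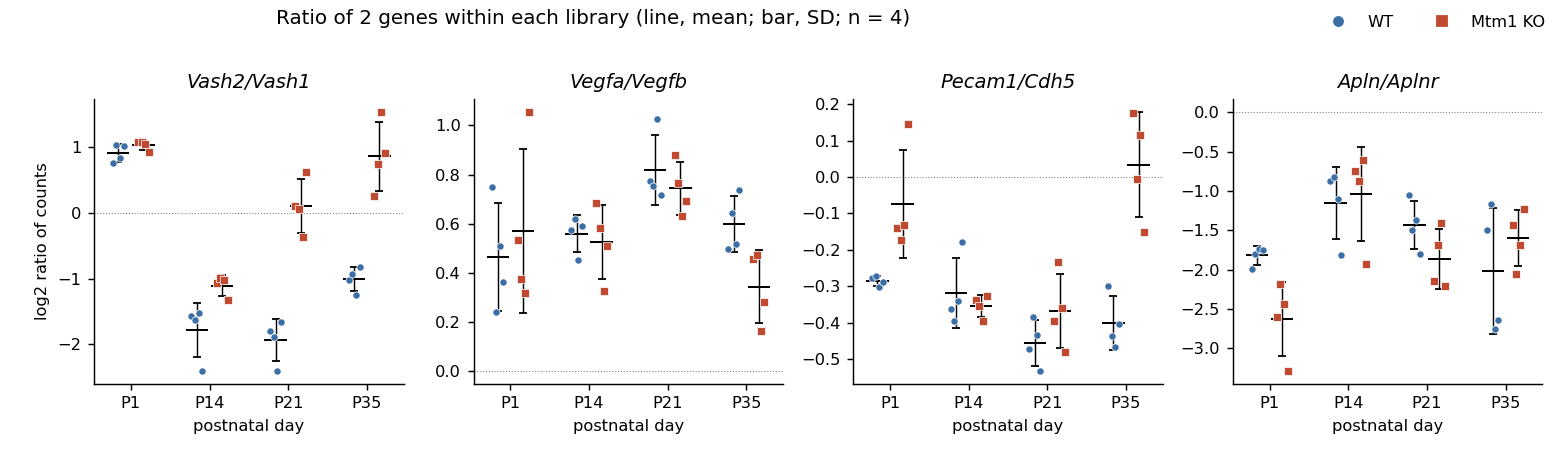
log2 ratio of the counts of 2 genes within each library (y axis, a scale of its own in each panel) by postnatal day (x axis) for *Vash2*/*Vash1*, *Vegfa*/*Vegfb*, *Pecam1*/*Cdh5* and *Apln*/*Aplnr*, WT as circles and KO as squares, with mean and SD (n = 4). The *Vash2*/*Vash1* ratio is higher in every KO library than in any WT library at P14, P21 and P35.

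Other genes of vessels gave a setting for the 10. Of 25 genes of endothelial identity, 4 were lower and 0 higher at P35 (against 16% of all genes called and 7.52% lower), *Ptprb* (-1.06, the phosphatase that restrains TIE2), *Mmrn2* (-0.81, an endothelial matrix glycoprotein), *Tie1* (-0.78, the orphan partner of TIE2) and *Nos3* (-0.65, endothelial nitric oxide synthase), and 21 had a negative log2 difference. Their median was -0.47, that of the 10 genes -0.60 and that of all genes 0.04. At P21 none of the 25 was called by edgeR and DESeq2 called 1 (*Ptprb*). With TMM 14 had an unadjusted edgeR p under 0.05, against 35.1% of all genes, and all 25 were negative (median -0.32). With library totals 4 had an unadjusted edgeR p under 0.05 and 22 were negative. Of 20 further genes of the VEGF, angiopoietin and apelin pathways tested at P35, *Cxcr4* (-1.23, the receptor of CXCL12), *Nrp1* (-1.08, a VEGF co-receptor) and *Flt4* (-1.02, VEGFR3) were lower and *Angpt4* (2.38, an angiopoietin, 0.356 CPM on average in WT and 1.82 in KO) was higher, with a median of -0.38 over the 20. *Flt4* was called at P21 as well (-0.60), though not with library totals (-0.41). Read against 16% of all genes, the numbers called in these lists, 4 of 25 and 4 of 20, and 2 of 11 among the inhibitors below, were near the background.

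Of 11 Notch and ephrin genes, 4 were lower at P35, *Dll4* (-1.27, the ligand that tip cells present), *Notch4* (-0.85), *Notch1* (-0.75) and *Hey1* (-0.70, a Notch target), and 0 higher. Among 11 inhibitors of angiogenesis *Thbs1* (1.81, thrombospondin 1) was higher and *Adamts9* (-0.74) lower. Of 17 genes of the hypoxia response, *Egln3* (2.07, a prolyl hydroxylase) and *Ankrd37* (0.81) were higher and *Epas1* (-1.18, HIF-2 alpha), *Pgk1* (-0.72) and *Egln1* (-0.66) lower, and the list's median was -0.01. *Hif1a* was not called with TMM (0.20, edgeR adjusted P = 0.124). *Vegfa*, itself a target, was lower. Of 12 genes of pericytes and smooth muscle, *Notch3* (-0.78), *Abcc9* (-0.71) and *Rgs5* (-0.62) were lower and 0 higher with TMM. Beside these counts, 16% of all genes were called at P35, 7.52% lower and 8.49% higher.

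Scaled by library totals, where the median of all genes is 0.44, these lists moved with it. The median of the 10 genes was then -0.20 and that of the endothelial identity genes -0.07. Among the 25 *Ptprb* was lower and *Plvap* and *Fabp4* were higher, and *Fabp4* is also in the list of adipocyte genes. The balance of calls turned towards higher, as it did over all genes, of which 2.09% were called lower and 27.9% higher. In the VEGF, angiopoietin and apelin list *Nrp1* stayed lower, and *Angpt4*, *Vegfd*, *Fgfr1* and *Svbp* were higher. In the Notch and ephrin list it was *Dll4* lower and *Hes1* higher, and among pericyte and smooth muscle genes 0 were lower and 2 higher (*Cspg4* and *Tagln*). *Thbs1* and *Serpinf1* were higher and none lower among the inhibitors, and in the hypoxia list *Epas1* was lower and *Egln3*, *Ankrd37*, *Hif1a*, *Vhl* and *Slc2a1* were higher. At P21 the same scaling gave medians of -0.31 and -0.13, against 0.20 for all genes. In the VEGF, angiopoietin and apelin list *Vegfd* (0.78) and *Fgfr1* (0.65) were then called higher, 2 of 19 against 6.93% of all genes.

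**Figure D4:**
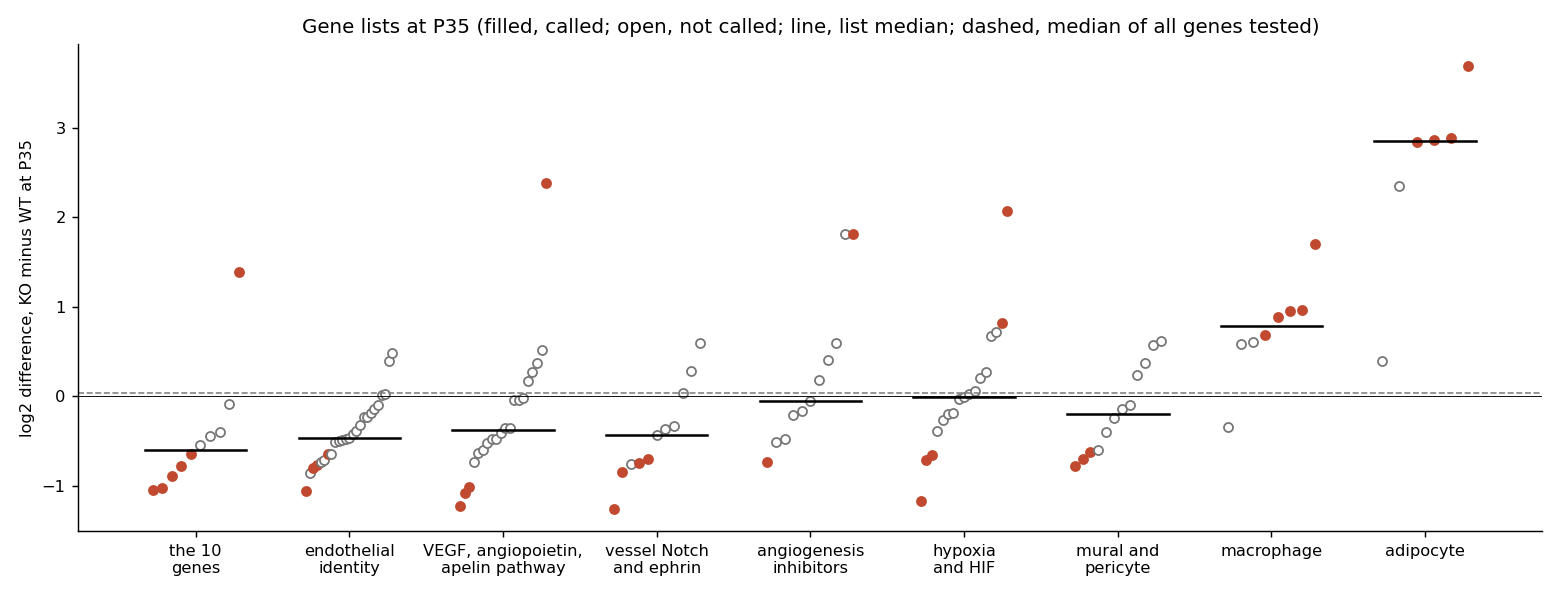
log2 difference of KO minus WT at P35 (y axis) for each tested gene of 9 lists (x axis), filled where called, with the list median as a line and the median of all genes (0.04) dashed. The lists of the 10 genes, endothelial identity and Notch lie mostly below 0, while macrophage and adipocyte genes lie above it; scaling by library totals lifts every value by about the same amount, to medians of -0.20 for the 10 genes and 0.44 for all genes.

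Markers of other cells moved at P35 too. Of 8 macrophage genes 5 were higher (summed level 72.5 to 92.1 CPM in WT and 87.8 to 125.4 CPM in KO), and of 6 adipocyte genes 4 (235.2 to 365.9 and 397.7 to 581.4 CPM). Over all genes 8.49% were called higher and 7.52% lower. Of 6 Schwann cell genes none was called. All 6 were positive (median 1.57) with an unadjusted edgeR p under 0.05, against 50.3% of all genes. Of 5 satellite cell genes *Pax7* and *Calcr* were lower and *Sdc4* was higher. Of 5 keratinocyte genes tested *Trp63*, *Perp* and *Sfn* were higher, and of 6 lymphatic genes *Pdpn*. Of 7 fibro-adipogenic and 5 erythroid genes tested none was called. 10 genes of the contractile fibre summed to 109800 to 150400 CPM in WT and 75340 to 94820 CPM in KO. The sum does not hold for each gene of that list, of which 1 was called lower (*Acta1*) and 3 higher (*Myh7*, *Myh8* and *Myh3*), and 6 had a negative log2 difference. Genes of the mitochondrial chromosome took 12.4% to 17.9% of counts in WT and 10.3% to 10.5% in KO. The 25 endothelial genes summed to 1393 to 2169 CPM in WT and 1250 to 1540 CPM in KO. *Fabp4* is in both the endothelial and the adipocyte list, and so in both sums. No gene of these lists that was tested was at 0 in every library of a group at P35. The part of these shifts in the results for the 10 genes was not tested.

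Across the 32 libraries the genes whose log2 levels ran most like each of the 10 were found by Pearson's r among 13523 genes with a mean above 1 CPM, as a description, since libraries of 1 age share most of their pattern. *Pecam1* ran most like *Cdh5* (r = 0.96) and *Cdh5* like *Cavin2* (0.969) and *Cd93* (0.962). *Tek* ran most like *Eng* (0.955), *Kdr* like *Ets1* (0.944), and *Apln* like *Col15a1* (0.892). The VEGF ligands and *Flt1* had other neighbours, *Vegfb* with *Mfn1* (0.993), *Vegfa* with *Timm44* (0.978) and *Flt1* with *Pdha1* (0.975). *Vash2* ran most like *Dennd2c* (0.964) and *Angpt1*, with the weakest match, like *Zfp971* (0.811). Once group means were taken out, *Pecam1* and *Cdh5* still deviated together (r = 0.925 over 32 libraries), as did *Tek* with each (0.868 and 0.854), whereas *Pecam1* and *Vegfa* did so less (0.545).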

How the data were processed

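The deposited table holds RSEM expected counts per gene, which the authors made from poly(A) RNA-seq of 32 libraries. Per the labels, reads were aligned to GRCm38 with STAR 2.6.1 and counted with RSEM 1.2.22. The paper's methods name HTSeq for counting and a directional library kit. Whether strand was used in counting is not given in the sources used here. Of the values 4.26% were not whole, and all were rounded. Genes were filtered with filterByExpr, scaled by TMM and tested with edgeR 4.0.16 (quasi-likelihood test, R 4.3.3) on the 8 libraries of each comparison (P adjusted by Benjamini-Hochberg across every gene in the fit); a gene was called at an adjusted P under 0.01 and more than 1.5-fold. Interactions were tested in 1 fit of 32 libraries (adjusted P under 0.01). Alternatives were DESeq2 1.42.0, other scalings, filters and thresholds, counts not rounded, a replicate block and leaving out each library; the fit was checked on simulated data. Log2 ratios of 2 genes used a prior count of 0.5. Replicate numbers come from the sample titles and were taken to pair libraries where every pair of same-numbered libraries had deviations correlated above 0.1, which held only for KO vs WT at P14 (r = 0.19 to 0.588). The named genes are the 10 themselves, the list genes that were called, partners used in ratios and, for likeness, those with the highest r. The 10 genes and the lists were chosen with earlier results of these data known.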

Additional observations from a re-analysis of the deposited data

Results flagged for a closer look

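Among groups of 4 libraries (80 groups of levels and 56 of ratios), 8 had 1 library whose distance from its nearest neighbour took up nearly the whole range of the group. Chance gives about 1 such group in 20. 5 of the 8 were in replicate 4 of P14. *Flt1* was at 86.8 CPM in WT P14 replicate 4, where the other 3 libraries were at 57.2 to 61.7, and at 96.8 CPM in KO P14 replicate 4, where the others were at 51.8 to 59.2. *Vegfa* was at 113 CPM in WT P14 replicate 4 (others 82.2 to 87.0). In the same library the log2 ratio of *Angpt1* to *Tek* was -2.53 (others -1.61 to -1.54) and that of *Vash2* to *Vash1* was -2.40 (others -1.63 to -1.52). *Tek* was at 65.9 CPM in WT P21 replicate 3 (others 45.5 to 47.6), and *Angpt1* at 23.8 CPM in KO P35 replicate 2 (others 12.7 to 13.8). The log2 ratio of *Pecam1* to *Cdh5* was 0.145 in KO P1 replicate 4, the library with the lowest level of 8 of the 10 genes (others -0.172 to -0.132). Without either replicate 4 at P14, edgeR with no replicate block called none of the 10 genes between genotypes at that age.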

How the results depend on the processing

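Of 132 counts of called genes under other settings 114 stayed within 1.5 times of the reported count and 18 moved. KO vs WT: at P14 the replicate block gave 1; at P21 DESeq2 and no fold threshold gave 3, and no filter, an adjusted P under 0.05, the replicate block (*Apln* and *Vash2*) and 1 fit of all 32 libraries gave 2; at P35 library totals gave 3. Age steps: library totals gave 3 for WT P1 to P14, 1 for WT P14 to P21, 5 for KO P1 to P14 and 1 for KO P21 to P35; for WT P21 to P35 DESeq2, an adjusted P under 0.05 and 1 fit of all libraries gave 1; the replicate block gave 0 for WT P14 to P21 and KO P21 to P35 and 1 for KO P14 to P21. Same-numbered libraries did not deviate together outside P14 (mean r of -0.14 to 0.0852), and in the remaining comparisons the block gave 0 at P1, 5 at P35 (without *Tek*), 8 from P1 to P14 in WT, 8 in KO (without *Angpt1*) and 0 for WT P21 to P35. With 1 library left out, the counts ranged 1 to 2 (P21), 4 to 7 (P35), 8 to 9 (P1 to P14, either genotype), 0 to 5 (WT P14 to P21), 2 to 3 (KO P14 to P21) and 0 to 4 (KO P21 to P35). Over all genes, calls at P1 were 8 (DESeq2 93), at P14 5 (DESeq2 53, replicate block 98), at P21 709 (library totals 1157, no fold threshold 1234, adjusted P under 0.05 1213) and at P35 2496 (library totals 4676). Log2 differences that changed sign were, at P1, *Vegfa* (-0.0060 with DESeq2, -0.0059 with RLE, -0.0091 with no filter, -0.010 in 1 fit of all libraries); at P14 with library totals *Pecam1* 0.043, *Cdh5* 0.071, *Tek* 0.016, *Vegfa* 0.050, *Vegfb* 0.080 and *Angpt1* 0.019, and *Flt1* (-0.00061 with the upper quartile, -0.012 with the replicate block); at P35 *Angpt1* 0.014 and *Apln* 0.30 with library totals, and *Apln* 0.020 with the block; from P1 to P14 with library totals *Tek* -0.34 and *Angpt1* -0.18 in WT, -0.20 and -0.035 in KO; *Flt1* -0.0023 in KO P14 to P21 with library totals; *Vash2* in KO P21 to P35 (-0.018 with the block, -0.0025 in 1 fit); and interactions with library totals, *Vegfa* 0.012 (P1 to P14), *Pecam1* 0.19 and *Angpt1* 0.19 (P21 to P35). Signs also changed as libraries were left out, with ranges for KO vs WT at P1 of -0.15 to 0.040 (*Pecam1*), -0.048 to 0.041 (*Vegfa*) and -0.21 to 0.0067 (*Vegfb*); at P14 of -0.11 to 0.035 (*Pecam1*), -0.072 to 0.058 (*Cdh5*), -0.032 to 0.16 (*Kdr*), -0.23 to 0.17 (*Flt1*), -0.15 to 0.015 (*Tek*), -0.17 to 0.077 (*Vegfa*), -0.14 to 0.098 (*Vegfb*), -0.22 to 0.068 (*Angpt1*) and -0.11 to 0.33 (*Apln*); at P35 of -0.51 to 0.40 (*Apln*); for age steps of -0.14 to 0.044 (*Vegfb*, WT P21 to P35), -0.087 to 0.25 (*Flt1*, KO P14 to P21), -0.11 to 0.24 (*Angpt1*) and -0.11 to 0.17 (*Vash2*, both KO P21 to P35); for interactions P1 to P14 of -0.078 to 0.12 (*Pecam1*), -0.043 to 0.36 (*Flt1*), -0.15 to 0.090 (*Vegfa*), -0.024 to 0.21 (*Vegfb*) and -0.044 to 0.25 (*Angpt1*), and P21 to P35 of -0.20 to 0.049 (*Pecam1*), -0.13 to 0.26 (*Kdr*) and -0.33 to 0.054 (*Angpt1*); and for log2 ratios, at P1 of -0.055 to 0.20 (*Vegfa*/*Vegfb*), -0.078 to 0.032 (*Kdr*/*Flt1*) and -0.18 to 0.072 (*Angpt1*/*Tek*), at P14 of -0.088 to 0.032 (*Vegfa*/*Vegfb*), -0.11 to 0.27 (*Kdr*/*Flt1*), -0.059 to 0.012 (*Pecam1*/*Cdh5*), -0.21 to 0.26 (*Angpt1*/*Tek*), -0.11 to 0.41 (*Apln*/*Aplnr*) and -0.22 to 0.048 (*Vegfa*/*Kdr*), and at P21 of -0.21 to 0.063 (*Kdr*/*Flt1*), -0.16 to 0.012 (*Angpt1*/*Tek*) and -0.026 to 0.093 (*Vegfa*/*Kdr*). Of the values that changed sign, 1 had been called, *Angpt1* in KO from P1 to P14. It went from 0.67 to -0.035 with library totals, a fit that differs from the main fit in scaling only. The median of all genes went from -0.095 to -0.81 there, and why it moved was not tested. Of 1338 single values under other settings 28 lost their call and 16 gained one. The 4 libraries a group limit what a comparison can call, and counting error is small, since the lowest count of any of the 10 genes was 143.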
